A study of Mus musculus with 20 samples.

Results

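Alternative 3′ ends were examined in mRNAs to which HuD was not found to bind. Among 9621 mouse genes with counts at a 3′ end, 1434 had at least 2 ends after ends within 20 nt of each other were merged, and 1180 of these were absent from the list of HuD-bound genes. The 1180 unbound genes carried 2577 of the 11338 merged ends. Of these genes 992 had 2 ends, 163 had 3, 22 had 4, 2 had 5 and 1 had 6, and 1165 were protein coding. The remaining 254 genes with several ends, with 574 ends, were HuD-bound and served for comparison. Absence from the list is a statement about the CRAC experiment. Listed sites had at least 6 covering reads and at least 3 deletions, and a weak or rarely expressed target can be missing. The study also required a high score on a U-rich sequence matrix and penalised places with reads in control cells. A target that failed either step can be missing too. No unbound gene was in the list of bound genes under another symbol for the same transcript.

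A gene can end its mRNA at more than 1 place. Cleavage and polyadenylation factors recognise a hexamer, most often AATAAA or ATTAAA, that lies shortly before the cleavage site, and the choice among sites sets how long the 3′ UTR is or, where sites lie in different last exons, which C terminus the protein has. HuD (ELAVL4) is a neuronal RNA-binding protein of the ELAV family, whose members bind U-rich sequence and are known to affect mRNA stability, translation and, in neurons, the choice of polyadenylation sites.

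The cells were NSC-34, a hybrid line made from mouse neuroblastoma and motor neuron-enriched spinal cord. The HuD cells carried the Tet repressor and a lentiviral, His-HA tagged human HuD under a CMV/TO promoter, induced for 48 h with 2 μg/ml tetracycline. The methods text names doxycycline as the inducer. The labels call the other cells of the 3′ end, RNA-Seq and POL-Seq libraries control and do not say whether they carried the repressor or received the inducer. For CRAC, which crosslinks tagged HuD to RNA and defined the bound genes, both HuD cells and control Trex cells, which carried the repressor alone, received 10 μg/ml for 24 h according to the labels and methods. Another passage of the study gives for CRAC the dose and time of the other libraries, so the induction behind the list of bound genes is uncertain. QuantSeq 3′ end libraries came from 3 control and 3 HuD-labelled cultures, and RNA-Seq and POL-Seq (polysomal RNA) libraries from 2 each.

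Each 3′ end library held 10154407 to 12295080 counts at merged ends, of which 11.6% to 11.8% fell on the unbound genes with several ends. The mouse *Elavl4* end at chr4:110203737 had 99.8, 45.4 and 96.9 CPM in control and 69.5, 38.6 and 62.7 CPM in HuD-labelled libraries, lower in each pair. The difference on the log2 scale was -0.49, with an adjusted p of 0.957 in the edgeR test and of 0.0376 when the replicate number entered as a block. The induced copy is a human cDNA with a vector 3′ end, so this mouse end does not check the induction, and the 3′ end libraries are called HuD-labelled below. In the separate RNA-Seq libraries, reads assigned to *Elavl4* averaged 86.8 CPM in control and 226 CPM in HuD cells. Of 15 neuronal markers 9 reached 10 CPM in control RNA-Seq, but Stmn2 (0.304 CPM) and Chat (0.519 CPM), a motor neuron enzyme, were low and the motor neuron factor Mnx1 was not listed. All 6 neuroblastoma markers passed 10 CPM, and no marker of microglia or fibroblasts was listed.

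The last 30 bases of the ends on which the results below turn are shown 5′ to 3′ as DNA letters of the mRNA strand, from GENCODE vM21 transcripts on GRCm38, with AATAAA and ATTAAA in capitals. The *Rufy3* ends belong to the 1 gene called in the edgeR tests without a replicate block, *Klc1*, *Pdlim7* and *Kif1b* show pairs in different last exons, *Nrp2* is shown for its main end, which was called lower with that block, and *Pola1* and *Tanc2* show proximal ends of different genes whose last 30 bases are the same.
*Rufy3* proximal, chr5:88640899-88640928, plus strand: cgttaaataccaAATAAActttgagaaata
*Rufy3* intermediate, chr5:88642667-88642696, plus strand: gtactagAATAAAaacaaaacaaaaaaata
*Rufy3* distal, chr5:88651363-88651392, plus strand: agttaggggaAATAAAattagtactactaa
*Klc1* proximal, chr12:111794868-111794897, plus strand: tctaacttctAATAAActcactccaactga
*Klc1* distal, chr12:111806682-111806711, plus strand: aaaaaaaATTAAAagtttatatgccatacc
*Pdlim7* proximal, chr13:55506773-55506802, minus strand: agcatggaAATAAAcattctcggccctgct
*Pdlim7* distal, chr13:55498412-55498441, minus strand: tgccacAATAAAcctgtatctagctgtgtg
*Kif1b* proximal, chr4:149233734-149233763, minus strand: tATTAAAgaAATAAAatcttcctgaaataa
*Kif1b* distal, chr4:149176319-149176348, minus strand: aaatAATAAAggtacaaccagtgcatcaca
*Nrp2* distal, chr1:62818666-62818695, plus strand: atttaAATAAAcattataccagaactattt
*Pola1* proximal, chrX:93623298-93623327, minus strand: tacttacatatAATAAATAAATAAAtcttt
*Tanc2* proximal, chr11:105916009-105916038, plus strand: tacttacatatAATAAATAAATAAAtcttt

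In control cells the unbound genes leaned to the distal end. The distal share, defined as the counts of the most distal end over those of the most proximal and the most distal end, had a median of 62.0% across the 1180 genes, with quartiles of 28.0% and 87.2%. It passed 50% in 704 genes (59.7%), 90% in 242 genes, and stayed below 10% in 127 genes. Bound genes leaned the same way, and the share passed 50% in 61.8% of the 254 bound genes, with a median of 69.9%, and in 60.0% of all 1434, with a median of 62.9%. Of the 1180 genes, 1027 stayed on the same side of 50% in all 6 libraries. Where a gene had more than 2 ends (188 genes), those in between took a median of 26.6% of its counts in control and 27.4% in HuD-labelled libraries.

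**Figure D1:**
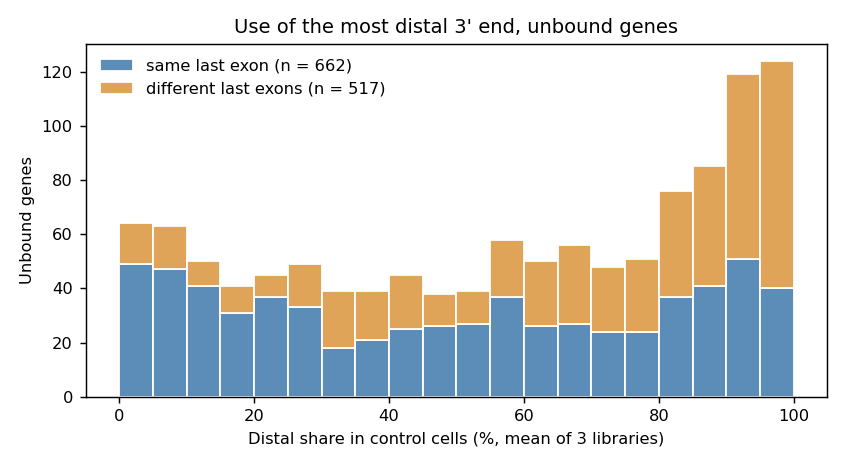
Distal share in control cells (horizontal axis, %, mean of 3 libraries) against the number of unbound genes (vertical axis), stacked by whether the most proximal and the most distal end lie in the same last exon (662 genes) or in different last exons (517 genes). The count is highest above 90%, where most genes have ends in different last exons.

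The distance between the ends and the exon they lie in went with the share. In 662 genes the proximal end lay within the last exon of a transcript that uses the distal end. Their median distance was 908 nt and their median distal share 50.3%. Whether the proximal end lay after the stop codon was not checked, so not all of these need be 3′ UTRs of different lengths. In 517 genes the ends lay in different last exons, with a median distance of 13417 nt and a median distal share of 76.0%, and 1 gene could not be placed. Ends at most 500 nt apart had a median distal share of 45.2% (244 genes), and ends over 5000 nt apart 77.3% (433 genes). These are descriptions across genes, with no test.

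A polyadenylation signal was found in a smaller share of proximal than of distal ends, given here as a description with no test. AATAAA or ATTAAA was searched in the last 40 bases before each end, on the transcript strand only, and was found in 660 of 1171 proximal ends (56.4%), 123 of 216 intermediate ends (56.9%) and 960 of 1164 distal ends (82.5%) of the unbound genes, against 80.2% of all 10914 ends with bases. Ends that were the only one of an unbound gene carried it in 84.5% of cases. In the HuD-bound genes the values were 58.3% for proximal and 88.5% for distal ends. The last 100 bases held TTTTT in 28.6% of proximal and 34.0% of distal unbound ends. Bound ends held it in 33.1% and 44.7% of cases, and all ends in 32.9%. The bound list kept only sites that scored high on a U-rich sequence matrix, and most lay in 3′ UTRs. The difference between bound and unbound ends is therefore partly set by how the groups were defined. A match is no proof of a used signal, and the ends are those of annotated transcripts.

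**Figure D2:**
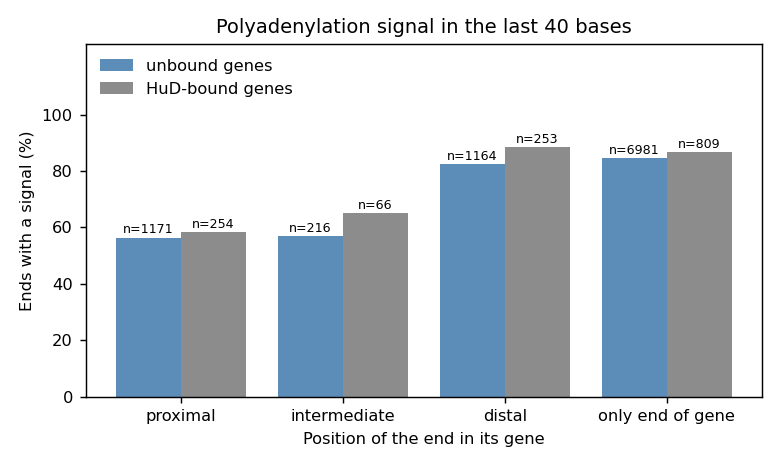
Share of 3′ ends with AATAAA or ATTAAA in the last 40 bases (vertical axis, %) by the position of the end in its gene (horizontal axis), for unbound and HuD-bound genes, with the number of ends above each bar. Proximal and intermediate ends stand below distal ends and below the ends of genes with a single end in both groups of genes.

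The signal went with the use of the ends. Where only the distal end had it (420 genes), the median distal share in control was 74.8%, and where only the proximal end had it (116 genes), 36.5%. With a signal at both ends (534 genes) it was 57.5%, and with a signal at neither (86 genes) 66.1%. Within the same last exon the median was 42.5% for 402 genes whose proximal end had a signal and 58.6% for 260 genes whose proximal end had none. The 20 bases after these proximal ends held AAAAAA in 15 of the 402 (3.73%) and in 83 of the 260 (31.9%), against 1.24% of 10914 windows of 20 bases lying 100 to 81 bases before an end. The kit primes on stretches of A, so counts at an end followed by A can come from priming inside a longer mRNA. Their part in the proximal counts was not tested.

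A small group of ends ended in a run of overlapping signals. AATAAATAAATAAATC, a run of the kind found in the tails of the mouse B2 family of repeats, stood in the last 100 bases of 10 of 1171 proximal ends (0.854%), 1 intermediate and 2 of 1164 distal ends of unbound genes, against 24 of 10914 ends overall (0.220%). The 10 genes with it at the proximal end were Arpc1a, Dlg1, Mtg2, Parp1, Pola1, Sec24a, Snf8, Sun1, Tanc2 and Tspan33. Their median distal share in control was 84.4%. The run was taken from the proximal end of Pola1, which is among the 10, so that match was fixed by the choice. No proximal, intermediate or distal end of a bound gene with several ends held the run, and 1 of 809 single ends of bound genes did. So few matches do not set bound apart from unbound genes. Reads from such a run can fit several places in the genome.

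Whether HuD shifted unbound mRNAs between proximal and distal ends was tested for each gene from the ratio of the 2 ends. The per-library medians did not separate the groups. Control libraries had median distal shares of 63.1%, 61.1% and 62.4%, and HuD-labelled libraries 62.0%, 61.5% and 62.1%, so the groups overlapped. The median change per gene was -0.0437 percentage points, with quartiles of -1.44 and 1.30 points, beside a median SD of 2.50 points among control and 2.74 points among HuD-labelled libraries. The median over the 254 bound genes was 0.0374 points and over all 1434 genes -0.0214 points. The sign of so small a median was not stable, and it was 0.0872 points without control replicate 1.

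No unbound gene passed an adjusted p of 0.05 in edgeR's test of distal against proximal use, where the share of genes called among all 1434 tested was 0%. At an unadjusted p under 0.05 edgeR found 39 unbound genes, 15 with a higher and 24 with a lower distal share, beside 3.49% of all tested genes (1.39% higher and 2.09% lower). DESeq2 called 1 gene after adjustment, beside 0.0697% of all tested, and 20 before (1.88% of all). With the replicate block edgeR called 1 gene, *Rufy3*, beside 0.0697% of all tested, and 72 at an unadjusted p under 0.05 (32 higher, 40 lower), beside 6.49% of all (2.86% higher and 3.63% lower). The distal shares of the groups did not overlap for 38 genes with higher and 73 with lower values in HuD-labelled libraries, beside 3.49% and 6.49% of all tested genes. These are 9.41% of the unbound genes, beside 9.97% of all tested, which include them, and 12.6% of the 254 bound genes. Without control replicate 3 the count at an unadjusted p under 0.05 was 16 in place of 39, beside 1.46% of all tested.

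The test over all ends of a gene found 0 unbound genes past the adjusted threshold (edgeR, 0% of all tested) and 6 at an unadjusted p under 0.05 (0.488% of all tested). With the block it called *Rufy3* alone (0.0697% of all tested), and 30 genes at an unadjusted p under 0.05 (2.86% of all tested).

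The precision set what could be seen. For 754 of the 1180 genes (63.9%) the 95% interval of the change in the distal to proximal ratio lay within 2-fold in either direction, and the median half-width of the interval was 0.653 on the log2 scale. In the 296 genes with the fewest counts, a mean of 36.8 to 169 per library over both ends, the median SD among controls was 4.80 points and 41.6% of genes had such an interval. In the 295 genes with the most counts the values were 0.718 points and 84.4%. A change of 2-fold or less could therefore go undetected in many genes, above all in those with few counts. On simulated counts a 2-fold change of the distal end was recovered in only 30% of 100 genes.

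**Figure D3:**
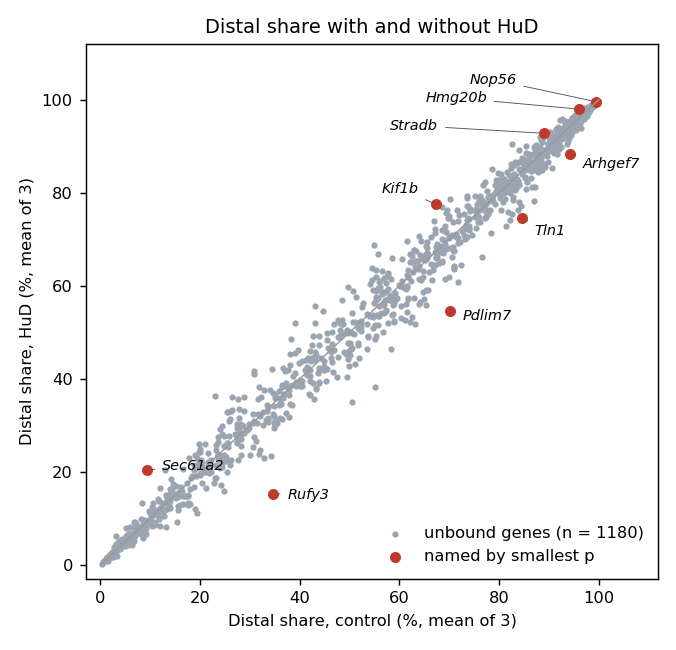
Mean distal share of the 1180 unbound genes in 3 control libraries (horizontal axis, %) and 3 HuD-labelled libraries (vertical axis, %), with equal shares on the line and, in red, 9 of the 10 genes with the smallest p-values among those whose groups do not overlap. Most genes lie along the line, 11 changed by over 10 points upwards and 10 downwards, and *Rufy3* lies farthest below it, at 34.6% and 15.3%.

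*Rufy3*, a RUN and FYVE domain protein with roles in neuronal polarity and axon growth, had 3 ends on chromosome 5. Its proximal end, at chr5:88640928 and in another last exon than the distal one, had 131, 106 and 129 CPM in control and 314, 276 and 320 CPM in HuD-labelled libraries. The distal end, 10464 nt further on, had 78.1, 43.8 and 76.7 CPM in control and 64.9, 37.2 and 65.8 CPM in HuD-labelled libraries. The groups were far apart at the proximal end. At the distal end they overlapped, with a lower value in the HuD-labelled library of each of the 3 same-numbered pairs.

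The proximal end rose by 1.32 on the log2 scale (SE 0.12, adjusted p = 0.00564 from edgeR), and the distal end had a log2 change of -0.23 (SE 0.26, adjusted p = 1 from edgeR, and SE 0.09, adjusted p = 0.205 with the block). The intermediate end had 23.9, 18.6 and 25.8 CPM in control and 61.0, 46.3 and 60.8 CPM in HuD-labelled libraries, a log2 change of 1.31 (SE 0.17) with an adjusted p of 0.051 from edgeR, and of 3.28e-05 with the block. Both upstream ends were thus higher in every HuD-labelled than in every control library. The call at the proximal end was lost without control replicate 1 (adjusted p = 0.13) and without HuD replicate 1 (adjusted p = 0.0569), at log2 changes of 1.35 and 1.33.

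The distal share of *Rufy3* was 37.4%, 29.2% and 37.2% in control and 17.1%, 11.9% and 17.0% in HuD-labelled libraries, lower in every pair and without overlap. The means were 34.6% ± 4.69 and 15.3% ± 3.02 (SD, n = 3), and the ratio had a log2 change of -1.56 (SE 0.23, 95% interval -2.09 to -1.03). Its adjusted p was 0.225 from edgeR, 0.000233 with the block and 6.51e-05 from DESeq2, and the log2 change ranged from -1.73 to -1.36 when each library was left out.

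RNA-Seq, from other libraries, had 184 and 189 CPM of *Rufy3* in control and 237 and 258 CPM in HuD cells, and POL-Seq 185 and 226 CPM against 248 and 272 CPM. Neither pair of groups overlapped. The log2 changes were 0.39 in total (SE 0.12) and 0.30 in polysomal RNA (SE 0.12), with adjusted p = 1 and 0.969 from edgeR, so neither passed the threshold.

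**Figure D4:**
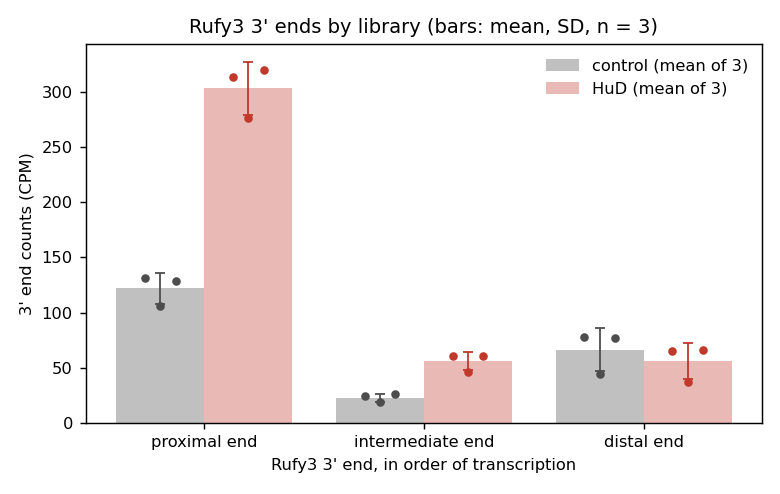
Counts at the 3 ends of *Rufy3* in order of transcription (horizontal axis), in CPM (vertical axis), with points for libraries, bars for the mean and whiskers for the SD of 3 control and 3 HuD-labelled libraries. The proximal and intermediate ends are higher in every HuD-labelled library, and the distal end overlaps between the groups.

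The other genes with the smallest p-values and a lower distal share included 2 of the actin cytoskeleton. *Pdlim7*, a PDZ and LIM domain protein of actin structures, had distal shares of 68.9%, 69.5% and 72.1% in control and 57.6%, 50.1% and 55.7% in HuD-labelled libraries (log2 change of the ratio -0.98, SE 0.20, adjusted p = 0.985 from edgeR). *Tln1*, talin, which links integrins to actin, had 84.4%, 88.5% and 80.9% against 74.0%, 76.5% and 73.1% (log2 change -0.92, SE 0.25). In both, the count that differed was that of the proximal end. *Arhgef7*, an exchange factor for Rac and Cdc42, had 93.9%, 95.0% and 93.8% against 86.0%, 90.1% and 89.2% (log2 change -1.08, SE 0.27). The adjusted p of these genes stayed above 0.05 with and without the block.

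Higher distal shares with the smallest p-values were found for 5 genes, again with no adjusted p under 0.05. *Kif1b*, a kinesin that carries mitochondria and synaptic vesicle precursors along axons, had 68.7%, 65.2% and 68.0% in control and 79.8%, 74.3% and 78.6% in HuD-labelled libraries (log2 change 0.75, SE 0.19, adjusted p = 0.985 in edgeR, or 0.134 under the block). Its ends lay 57415 nt apart. *Sec61a2*, a subunit of the protein channel of the endoplasmic reticulum, had 13.7%, 5.94% and 8.67% against 17.3%, 23.0% and 21.0% at 13.1 CPM over both ends (log2 change 1.24, SE 0.36).

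*Stradb*, a pseudokinase partner of the kinase LKB1, had mean distal shares of 89.0% ± 0.493 and 92.8% ± 0.963 (SD, n = 3). *Hmg20b*, of a histone demethylase complex, had 96.0% ± 0.948 and 98.0% ± 0.338, and *Nop56*, a core protein of box C/D snoRNPs, 99.4% ± 0.0738 and 99.6% ± 0.0268. The proximal end of *Hmg20b* and of *Nop56* thus held little of the counts in both groups. Every listed end had at least 1 CPM in at least 3 libraries. The proximal end of *Hmg20b* met this in the control libraries alone, so the way ends were kept favoured its higher distal share. The proximal end of *Nop56* fell under 1 CPM in HuD replicate 2 (0.866 CPM). In control replicate 2 so did the proximal end of *Arhgef7* (0.989 CPM) and the distal end of *Sec61a2* (0.540 CPM). The distal end of *Nop56* lies within 20 nt of an end of a gene on the other strand. Of all 1180 genes, 32 had an end that near to an end of another gene, 17 of them on the same strand. Except for *Nop56*, each of the 9 genes named here by p had its ends in different last exons. Among the 39 genes at an unadjusted p under 0.05, 15 were of the 662 with the same and 24 of the 517 with different last exons. All tested genes were split in a similar way. There, 8 were higher and 12 lower of 813 with the same last exon, and 12 higher and 18 lower of 618 with different ones.

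**Figure D5:**
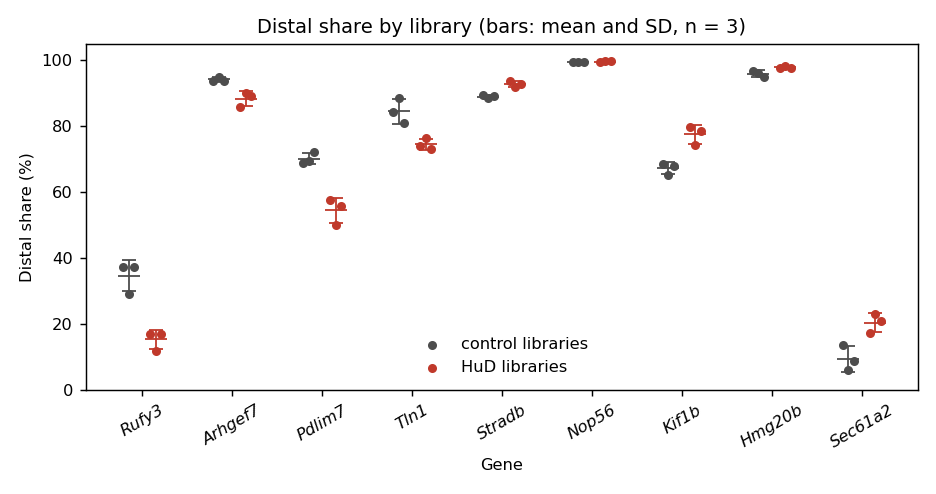
Distal share (vertical axis, %) of 9 of the 10 genes with the smallest p-values among those whose groups do not overlap (horizontal axis), with points for the 3 control and 3 HuD-labelled libraries, the mean and the SD. The groups are apart in each gene by the choice of genes, with the widest gap in *Rufy3* and gaps under 2 points in *Hmg20b* and *Nop56*.

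Each end was also tested on its own, for its level in the library. Of the 2577 ends of unbound genes with several ends, the proximal end of *Rufy3* was the one past the adjusted threshold, beside 0.0441% of all 11338 ends (0.0176% higher and 0.0265% lower), and 50 were higher and 48 lower at an unadjusted p under 0.05, beside 5.43% of all ends. That count of 98 was 239 without HuD replicate 2 (99 higher and 140 lower, beside 12.1% of all ends), 58 without control replicate 3 (3.25% of all) and 348 with the block (157 higher and 191 lower, beside 17.1% of all). With the replicate block 26 ends of 23 genes passed, 15 higher and 11 lower, beside 1.78% of all ends (0.803% higher and 0.979% lower), and DESeq2 called 7, beside 0.265% of all ends. Of the 26 ends 9 higher and 6 lower were proximal, 2 higher were intermediate, and 4 higher and 5 lower were distal. The groups did not overlap in 21 of the 26. In *Scube1* and *Sorcs2* every end was called, and in the other 21 genes some ends were not.

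The 10 ends with the smallest p under the block belonged to 7 genes. *Nrp2*, neuropilin 2, a receptor for semaphorins in axon guidance, had 93.1, 87.3 and 80.9 CPM at its distal end in control and 42.5, 53.8 and 40.0 CPM in HuD-labelled libraries. It fell by 0.94 on the log2 scale (SE 0.10, adjusted p = 0.00114 with the block and 0.132 without it, from edgeR). Its other ends held few counts and had lower values too, without overlap and without passing the adjusted threshold. The proximal end had 4.72, 5.31 and 4.55 against 3.64, 3.64 and 2.16 CPM (adjusted p = 0.158 with the block, from edgeR), and the intermediate end 7.42, 4.86 and 6.10 against 2.46, 4.76 and 3.57 CPM (adjusted p = 0.159). The distal end held 88.8% ± 0.673 of them in control and 87.1% ± 0.562 in HuD-labelled libraries (SD, n = 3). RNA-Seq had 48.5 and 51.0 CPM of *Nrp2* in control and 54.2 and 48.5 CPM in HuD cells, which overlap (log2 change 0.02, SE 0.09).

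*Klc1*, a kinesin light chain, had 104, 98.5 and 93.0 CPM at its proximal end in control and 157, 157 and 146 CPM in HuD-labelled libraries, a log2 change of 0.64 (SE 0.08, adjusted p = 0.00325 with the block and 0.16 without it, from edgeR). Its distal end had 51.9, 36.1 and 43.8 against 57.9, 40.0 and 58.6 CPM, which overlap. The distal share was 30.7% ± 3.43 in control and 25.3% ± 4.40 in HuD-labelled libraries (SD, n = 3), and the ratio was not called (adjusted p = 0.656 with the block, from edgeR). In RNA-Seq the gene had 107 and 117 CPM in control and 132 and 133 CPM in HuD cells, with a log2 change of 0.23 (SE 0.09, adjusted p = 1 from edgeR).

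Both ends moved together in 2 genes with low counts. *Scube1*, a secreted EGF domain protein, had 28, 49 and 42 counts at its distal end in control and 4, 7 and 10 in HuD-labelled libraries, and 22, 30 and 24 against 2, 6 and 3 counts at its proximal end. The ends had log2 changes of -2.44 (SE 0.32) and -2.71 (SE 0.38), with adjusted p = 0.00412 and 0.00679 with the block, from edgeR. Every listed end had at least 1 CPM in at least 3 libraries, and both *Scube1* ends met this limit in the control libraries alone. The way ends were kept thus favoured lower values of *Scube1* in HuD-labelled libraries, and its 2 calls are no independent sign of a fall. *Sorcs2*, a sorting receptor that binds proneurotrophins, had 35, 33 and 30 counts at its distal end in control and 75, 109 and 76 in HuD-labelled libraries, a log2 change of 1.46 (SE 0.19, adjusted p = 0.00425 with the block, from edgeR). Its proximal end had 8, 15 and 24 counts against 27, 62 and 54, a log2 change of 1.66 (SE 0.27, adjusted p = 0.0126 with the block, from edgeR).

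RNA-Seq showed no such difference for either gene. *Scube1* had 52.8 and 31.5 CPM in control and 48.9 and 26.5 CPM in HuD cells, and *Sorcs2* 5.68 and 6.36 against 5.68 and 6.40 CPM. The 3′ end and RNA-Seq libraries are different preparations, and whether they came from the same cultures is not stated, so a difference between assays and one between cultures cannot be told apart. The remaining ends of the 10 were the proximal ends of *Tln1* and *Pdlim7*. At 7.84, 5.04 and 7.65 CPM in control, that of *Tln1* rose by 0.95 under the block (SE 0.16, adjusted p = 0.0142), to 12.6, 11.4 and 15.3 CPM. That of *Pdlim7* went from 10.2, 12.9 and 8.54 CPM to 16.2, 21.7 and 16.5 CPM (log2 change 0.79, SE 0.14, adjusted p = 0.0167 with the block, from edgeR), while its distal end overlapped between groups.

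Some further ends are named after their values were seen. The distal end of *Mapt*, tau, had 110, 77.5 and 99.6 CPM in control and 150, 98.9 and 146 CPM in HuD-labelled libraries, higher in each pair although 1 HuD-labelled library lay within the range of the controls (log2 change 0.46, SE 0.09, adjusted p = 0.0253 with the block and 0.865 without it, from edgeR). The proximal end of *Eno2*, the neuronal enolase, had 14.2, 9.80 and 15.5 against 21.2, 17.2 and 21.7 CPM, without overlap (log2 change 0.63, SE 0.13, adjusted p = 0.0329 with the block). In RNA-Seq *Mapt* had 65.5 and 64.8 CPM in control and 80.1 and 83.5 CPM in HuD cells, and *Eno2* 34.8 and 37.3 against 50.7 and 56.5 CPM, without overlap in either gene and with adjusted p = 1 from edgeR in both.

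The proximal end of *Tanc2* carries the run of signals shown above. It had 34.1, 54.4 and 35.5 CPM in control and 64.6, 77.1 and 49.1 CPM in HuD-labelled libraries (log2 change 0.63, SE 0.11, adjusted p = 0.0168 with the block and 0.883 without it, from edgeR). The distal end of *Parp1*, a DNA damage sensor, fell by 0.40 under the block (SE 0.08, adjusted p = 0.0278), from 204, 278 and 178 CPM in control to 144, 226 and 133 CPM in HuD-labelled libraries. Both pairs of groups overlapped, and replicate 2 was the highest of its group in both genes.

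Gene lists of shared function stood at different distal shares, given here as a description with no test. The 11 translation genes with several ends had a median distal share of 5.71% in control and 5.86% in HuD-labelled libraries, and the 29 mitochondrial genes 27.7% and 28.2%. The 15 cytoskeleton and motor protein genes stood at 76.5% and 77.4%, and the 24 RNA-binding and splicing proteins at 64.5% and 66.1%. Between these lay 36 ubiquitin and proteasome genes (45.8% in control and 46.4% in HuD-labelled libraries), 32 of vesicle traffic (53.8% and 54.4%), 32 of chromatin and transcription (56.5% and 58.6%), 27 of membrane transport (42.4% and 52.1%) and 20 kinases and phosphatases (39.8% and 38.1%). The median change per gene in these lists, which need not equal the difference of the medians, lay between -0.0920 and 0.382 points, the latter in membrane transport, beside -0.0437 points over all unbound genes.

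The groups also overlapped in the 15 other genes with the most counts in these lists, whose changes in distal share ran from -3.09 points in *Sec63*, of the machinery that moves proteins into the endoplasmic reticulum, to 1.91 points in *Sec11a*, a signal peptidase subunit. The intermediate end of *Sec63* held 95.4% of its counts in control and 96.5% in HuD-labelled libraries, so its distal share rests on few of them. Several of the 15 genes used 1 end almost alone. *Srsf2*, a splicing factor, had a distal share of 98.7% ± 0.489 in control and 98.9% ± 0.524 in HuD-labelled libraries (SD, n = 3), and *Dhx30*, an RNA helicase, 98.8% ± 0.528 and 98.6% ± 0.633. *Akt2*, a kinase of insulin signalling, stood at the other side with 1.30% ± 0.0146 and 1.30% ± 0.316, near *H2afv*, a histone variant, with 1.17% ± 0.0320 and 1.11% ± 0.469. *Brd2*, a bromodomain protein, used both ends, with 45.4%, 45.8% and 40.3% in control and 42.7%, 51.3% and 32.8% in HuD-labelled libraries.

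No list held a gene past the adjusted threshold without the block, and with it vesicle traffic held *Rufy3*. At an unadjusted p under 0.05 edgeR found *Fbxo46*, *Fbxo7* and *Trim2* in the ubiquitin list, *Rufy3* and *Sec61a2* in vesicle traffic, *Kif1b* among motor proteins, *Timmdc1* among mitochondrial genes, *Hmg20b* in chromatin, and *Slc12a8* and *Slc7a4* in membrane transport, named here after their values were seen.

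The most counted genes held nearly all counts at 1 end. *Gnb2l1*, which encodes the ribosomal scaffold RACK1, had 6209.7 CPM over its ends and a distal share of 99.7% ± 0.0371 in control and 99.8% ± 0.0307 in HuD-labelled libraries (SD, n = 3). *Rpl31*, at 5456.9 CPM, *Rpl5*, at 2445.2 CPM, and *Rpl13a*, at 2324.7 CPM, encode proteins of the large ribosomal subunit and used the distal end for 1.33%, 0.286% and 5.71% of counts in control. *Atp5b*, the beta subunit of the mitochondrial ATP synthase, at 3210.3 CPM, used it for 0.703%. Their changes lay between -0.0308 and 0.143 points, and the groups overlapped in all 5. Ribosomal protein genes have processed pseudogenes, and how reads shared with them were counted is not given.

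The groups overlapped in all 5 genes with the longest distance between ends. *Exoc4*, of the exocyst, had ends 496830 nt apart and distal shares of 96.3% ± 0.832 and 97.5% ± 1.62 (SD, n = 3). *Syt1*, the calcium sensor of synaptic vesicle release, with ends 401565 nt apart, had 99.2% ± 0.425 and 99.4% ± 0.349. *Pola1*, the catalytic subunit of DNA polymerase alpha, had 44.0%, 39.2% and 52.3% in control and 38.1%, 35.5% and 44.9% in HuD-labelled libraries, with the widest gap between means of the 5 except for *Tmem108*. The spread was wide in *Ube2e2*, a ubiquitin-conjugating enzyme (80.0% ± 9.02 and 82.7% ± 9.89), and in *Tmem108*, a membrane protein (31.8% ± 15.4 and 38.2% ± 30.7), where replicate 2 had the highest share of both groups.

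Genes of the list known for alternative 3′ ends and of the cleavage machinery were few. *Rtn4*, the myelin-associated inhibitor Nogo, had distal shares of 71.1%, 67.6% and 71.4% in control and 72.3%, 68.1% and 71.1% in HuD-labelled libraries. *Ube2k*, with 5 ends, had 43.9% ± 19.2 and 39.1% ± 15.1 (SD, n = 3). Its proximal and distal ends held only 3.56% and 2.30% of its counts in control. The intermediate ends held 44.5%, 31.6% and 18.0%, so the distal share of *Ube2k* describes few of its mRNAs. Among the machinery genes, *Fip1l1*, a subunit of the cleavage and polyadenylation specificity factor, had 98.3% ± 0.915 and 97.8% ± 0.773, and *Pabpn1*, the nuclear poly(A) binding protein, 55.4% ± 2.19 and 49.2% ± 7.74. The groups overlapped in each of these 4 genes. Over the lists, the 4 genes known for alternative 3′ ends had a median distal share of 74.9% in control and a median change of 0.363 points, and the 5 machinery genes 78.6% and -0.592 points.

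The level of the machinery itself was read from RNA-Seq. Of 26 cleavage and polyadenylation genes, 12 had a fitted log2 change above and 14 below 0, with a median of -0.01, and 15 had a higher mean CPM in HuD cells. edgeR called 0 of them after adjustment (0% of all 14906 genes tested) and 0 at an unadjusted p under 0.05, beside 2.64% of all genes. *Nudt21*, whose loss is known to shift mRNAs to proximal ends, had a log2 change of 0.06 (SE 0.11), *Pcf11* of 0.12 (SE 0.10) and *Cstf2* of -0.03 (SE 0.12). With the block 1 gene, *Clp1*, had an unadjusted p under 0.05.

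The unbound genes as a group showed no called change in total or polysomal RNA. Of 1178 with RNA-Seq counts, edgeR found 0 with an adjusted p under 0.05 in either (0% of all genes tested in both). At an unadjusted p under 0.05 there were 14 higher and 7 lower in total RNA, and 20 higher and 16 lower in polysomal RNA, beside 2.64% and 4.17% of all genes. With the block these became 37 higher and 25 lower in total RNA, beside 6.16% of all genes. In polysomal RNA they became 38 higher and 72 lower, beside 9.3% of all genes. The majority thus turned in polysomal RNA, and it did so over all genes as well. Those were 341 higher and 281 lower without the block, and 643 higher and 743 lower with it. DESeq2 called 0 unbound genes after adjustment in total and in polysomal RNA, beside 0.00671% and 0.0201% of all genes. The median log2 change was -0.01 in total and -0.03 in polysomal RNA. Without control replicate 1 of POL-Seq, 22 unbound genes passed the adjusted threshold in polysomal RNA, beside 2.49% of all genes, and 107 were higher and 253 lower at an unadjusted p under 0.05, beside 21.9% of all. Without HuD replicate 2 of POL-Seq the unadjusted count was 10, beside 1.63% of all.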

How the data were processed

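3′ end libraries were made with the Lexogen QuantSeq REV kit from 3 control and 3 HuD-labelled cultures. The authors aligned the reads with STAR 2.5.3a to GRCm38.p4, guided by Gencode M6, and deposited raw counts of reads starting within 10 nt of known polyadenylation sites, 1 line for each transcript. Every listed end had at least 1 CPM in at least 3 libraries, so an end can be present through 1 group alone. The handling of reads that map to several places, and of strand, is not given in the sources used here. RNA-Seq and POL-Seq values are deposited counts per gene from STAR, with 2 libraries per group. For CRAC, the authors pooled replicates and deposited a coverage signal and deletion counts per binding site, and only its gene names were used, with at least 6 covering reads and 3 deletions per site.

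Lines sharing an end were reduced to 1 end, and ends of a gene within 20 nt to the one with the highest count. The 6 libraries held 10154407 to 12295080 counts at 11338 merged ends. CPM was computed against that total. Tests used edgeR 4.0.16 in R 4.3.3 (filterByExpr, quasi-likelihood test, two-sided, Benjamini-Hochberg adjustment at 0.05). TMM normalisation was used in all fits but that of distal against proximal use, which took library totals and a term for each library. Distal against proximal use was the interaction of end and condition in a fit to 12 columns, 2 ends in 6 libraries, over the 1434 genes with 2 or more ends. Site usage over all ends was tested with diffSpliceDGE and Simes' method, and the abundance of each end over 11338 ends. Total and polysomal RNA were tested in 1 fit to 8 libraries. DESeq2 1.42.0 was an alternative. Descriptions and figures were made in Python 3.11.15 with pandas 2.3.3, numpy 2.4.6 and matplotlib 3.10.9. Last exons and bases were read from GENCODE vM21 transcripts (GRCm38), which held 99.6% of the ends by transcript ID. No genome sequence was used.

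Replicate numbers come from the sample titles. Deviations of same-numbered control and HuD-labelled libraries from their group means were correlated, with r = 0.291, 0.635 and 0.383 for the ratio of distal to proximal counts and 0.374, 0.664 and 0.497 for end abundance, so the number was taken to pair the libraries and its block is given where it changes a call. No source says that a number marks a shared day or litter. The labels do not say that replicates are separate cultures, while the study calls them biological triplicates and duplicates.

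Genes, gene lists and tests were chosen with earlier results of these data known. Genes named are those past the adjusted threshold in either test of end use, the 5 in each direction with the smallest p-value among genes whose groups do not overlap, the 5 with the most counts, the 5 with the longest distance between ends, and the 2 with the most counts in each of 11 gene lists. Ends named are the up to 10 with the smallest p-value among those past the threshold. Exceptions are named in the text, and 1 gene that meets the rule is not reported here. On simulated counts, a 2-fold change of the distal end was recovered in 30% of 100 genes and a 4-fold change in 98% of 100, and 0.6% of 1234 unchanged genes were called. For end abundance the 2-fold recovery was 54%.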

Additional observations from a re-analysis of the deposited data

How the results depend on the processing

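The count of unbound genes with a called change in distal against proximal use (0) became 1 with the replicate block and 1 with DESeq2, in both cases *Rufy3*, and stayed at 0 when any 1 library was left out. Site usage (0) became 1 with ends not merged, 1 with merged ends summed, 1 with the replicate block, and 0 to 1 when each library was left out. Called ends (1) became 6 with ends not merged, 2 with merged ends summed, 26 with the replicate block, 2 with the size factors of DESeq2, 7 with its test, and 0 to 4 when each library was left out, 0 of them without control replicate 1 or without HuD replicate 1. Over all ends the share called was 0.0441% in the main fit, 1.78% with the replicate block and 0.265% with the test of DESeq2. When each library was left out, 2 to 11 of all tested ends were called. Ends listed 1 to 20 nt apart can hold the same reads, so unmerged ends can count a change more than once. Genes at an unadjusted p under 0.05 (39) numbered 80 with ends not merged, 72 with the replicate block and 20 with DESeq2. They numbered 16 to 44 when each library was left out. Shares over all tested genes were 3.49% in the main fit, 6.49% with the block, 1.88% with DESeq2 and 1.46% without control replicate 3. For unmerged ends the share is not given here, so the 80 cannot be set against all tested genes. Total RNA had 0 calls throughout, and polysomal RNA 0 to 22 when each library was left out. At an unadjusted p under 0.05 their counts (21 and 36) were 10 to 60 and 10 to 360 when each library was left out. The median change in distal share lay between -0.187 and 0.0872 points when each library was left out, less than the spread between libraries. The block changed no other call of distal against proximal use, nor one of total or polysomal RNA among the unbound genes. No called value reversed its direction. With 3 libraries a group and few counts at many ends, changes of 2-fold or less in end use can be missed. On simulated counts a 2-fold change of the distal end was recovered in only 30% of 100 genes.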
